A study of Mus musculus with 31 samples.

Results

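The collagen genes were followed across control mammary tissue and successive stages of β-catenin-driven mammary tumorigenesis. A gene was included if its probe set carries a single symbol made of Col, a number, the letter a and a number; *Col17a1* was left out. This rule found 41 genes with 81 probe sets among 18193 genes with a symbol of their own on the Affymetrix Mouse Genome 430 2.0 array. They comprise 11 fibrillar collagens, 9 basement membrane collagens and 21 others. The tissue groups were tumors (11), large hyperplasias (5) and small hyperplasias (5) of K5ΔNβcat mice, and control mammary tissue (4). K5ΔNβcat mice express an N-terminally truncated, stabilized β-catenin from the keratin 5 promoter, which is active in basal cells. A separate experiment compared sorted mammary basal cells of K5creMycL/L mice, in which Cre expressed from the same promoter deletes *Myc*, with those of control mice (3 independent pools of several mice each). All labels give the strain as C57BL6, whereas the methods describe a mixed 129SV/C57BL6 background; the sources used here do not give the ages of the arrayed samples. The labels do not say whether tissue samples of a group came from separate animals, so p-values measure only the spread between these samples, which may be technical.

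Collagens are secreted proteins wound from 1 to several kinds of α chain, each chain encoded by its own gene. Fibrillar collagens such as types I, III and V form the fibres of connective tissue, mostly made by fibroblasts, whereas type IV collagen forms the sheet of the basement membrane that separates the mammary epithelium, vessels and fat cells from the stroma. Further collagens sit on the surface of fibrils, build other networks, anchor the basement membrane or span the cell membrane.

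Start regions are shown for 4 collagen loci whose genes carry large or paired changes described below, among genes with such a region at hand. They are RefSeq sequences of mouse build GRCm38.p6, in the direction of the named gene except for the pair. *Col4a1* and *Col4a2* lie head to head on chromosome 8, and capitals mark the 22 bases that lie in the first transcribed bases of both genes (chr8:11312801-11312830, plus strand, *Col4a1* read from the minus strand). For *Col7a1* (chr9:108953486-108953585, plus strand) and *Col8a1* (chr16:57754738-57754837, minus strand), capitals mark GGGCGG on either strand, the GC box. For *Col15a1* (chr4:47207862-47208011, plus strand), capitals mark CTTTGAA on the opposite strand, a form of the motif bound by the Tcf/Lef partners of β-catenin.
Col4a1-Col4a2: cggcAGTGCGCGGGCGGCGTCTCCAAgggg
Col7a1: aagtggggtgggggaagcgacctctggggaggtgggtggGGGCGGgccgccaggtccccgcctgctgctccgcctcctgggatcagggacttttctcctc
Col8a1: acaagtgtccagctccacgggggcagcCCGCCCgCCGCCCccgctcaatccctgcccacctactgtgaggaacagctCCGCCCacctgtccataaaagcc
Col15a1: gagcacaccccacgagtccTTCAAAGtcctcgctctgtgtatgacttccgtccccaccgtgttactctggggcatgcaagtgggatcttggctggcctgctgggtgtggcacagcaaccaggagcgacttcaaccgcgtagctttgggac
RefSeq start regions were at hand for 32 of the collagen genes (35 windows), but not for *Col12a1*, *Col9a3*, *Col1a1* or *Col5a2*, among others. The 250 bases before each start were searched on both strands. CTTTGAA or CTTTGAT was found in 5 of the 35 windows (14.3%), those of *Col6a2*, *Col9a1*, *Col9a2*, *Col13a1* and *Col15a1*, against 7.48% of all 32851 windows. GGGCGG was found in 21 windows (60%), against 32.7% of all. CCAAT was found in 12 (34.3%), against 33.8%, and TATAAA in 4 (11.4%), against 12.4%. A match describes letters only. *Col4a5* and *Col4a6* are likewise divergent neighbours, with starts 1342 bases apart on chromosome X.

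The deposited values are MAS5 signals, linear intensities scaled to a trimmed mean of 100 on each array. Array medians were 23.9 to 32.9 for tissue and 13.2 to 19.7 for sorted cells. The background cut-off of the methods, a signal of 30, was reached by 46.2% to 51.9% of 45037 probe sets on tissue arrays and by 38.5% to 42.8% on arrays of sorted cells. *Ctnnb1*, which encodes β-catenin, read 2799 to 3839 in tumors and 540 to 706 in control tissue on one of its probe sets, with both sets of hyperplasias between these ranges (1092 to 1932). On a brighter probe set tumors read 3370 to 4369 and control tissue 2391 to 3054, and tumors overlapped with hyperplasias (3014 to 4007). Over all probe sets tested in tumors against control tissue, 33.2% were called higher and 35.9% lower. Basal epithelial markers such as *Krt5* were called higher for 8 of 8 genes tested, with summed signals of 10155 to 16670 in tumors and 1232 to 1686 in control tissue. Adipocyte markers were called lower for 10 of 10 (summed signals 924 to 6473 in tumors and 48595 to 52386 in control tissue) and endothelial markers for 12 of 12 (1049 to 1954 in tumors and 3141 to 3389 in control tissue). Of 13 fibroblast markers, 4 were called higher and 7 lower (3550 to 7553 in tumors and 6466 to 7423 in control tissue). Luminal markers were called lower for 5 of 8 genes, pericyte markers for 3 of 6 with 1 higher, and Schwann cell markers for 2 of 2, while leukocyte markers were called higher for 3 of 7. In large and small hyperplasias basal markers were likewise called higher (7 of 8 genes in each). Adipocyte (7 and 6 of 10) and endothelial markers (11 and 9 of 12) were called lower. Most of the 13 fibroblast markers were not called: the large group had 2 rises and 1 fall, the small group 2 rises and 0 falls. Over all probe sets tested, rises made up 25.6% and falls 20.1% for the large group. For the small group these shares were 16.8% and 14.4%. The fibroblast markers exceeded none of these shares. The part of any of these cell markers in the collagen changes was not tested. In such bulk samples fewer cells of a type and less RNA per cell cannot be told apart.

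In tumors the collagens moved in both directions. *Col12a1*, *Col8a1* and *Col7a1* were far higher in tumors than in control tissue, fibrillar collagen genes of types I, V, XI and XXVII were moderately higher, and *Col15a1* and the type IV genes *Col4a1*, *Col4a2* and *Col4a6* were lower. Of the 41 genes, 28 reached a group median of 30 in some tissue group and 27 could be tested in this comparison. With limma on log2 of the signal plus 16 and Benjamini-Hochberg adjustment over all 24086 probe sets tested, 14 collagen genes were called higher at an adjusted p under 0.05, against 33.2% of all probe sets, 4 were called lower, against 35.9%, and 9 were not called. The median log2 difference of the 27 genes was 0.45, against -0.03 over all probe sets tested. In 7 of the 27 genes no tumor overlapped with any control sample, against 41.7% of all probe sets tested. By class, 6 of 8 fibrillar genes were higher and 0 lower (median 0.72), 2 of 7 basement membrane genes were higher and 4 lower (median -0.73), and 6 of 12 other collagens were higher and 0 lower (median 0.67). *Col11a1*, *Col6a4*, *Col8a2*, *Col9a1* and *Col23a1* lay under 30 in every control and reached a median of 30 only through the tumors. Their direction was fixed by that cut-off, so the counts of higher genes and the medians rest partly on it. Among genes called higher in either hyperplasia group, the same held for *Col11a1* and *Col8a2*. Among genes called lower in tumors, *Col4a6* had a tumor median under 30 and was tested only through control tissue. Its direction was likewise fixed by the cut-off, so the count of lower genes rests partly on it too.

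**Figure D1:**
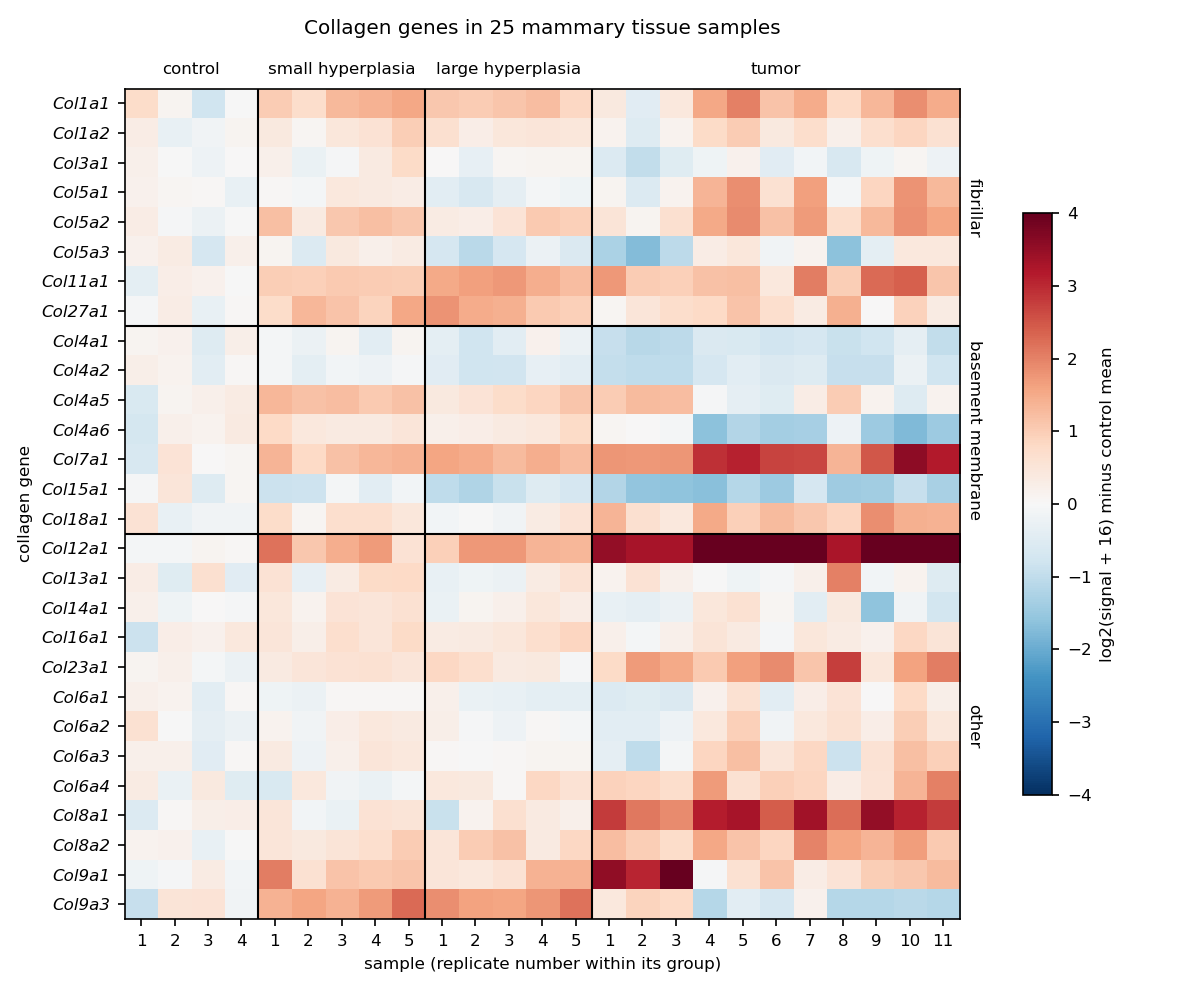
Heat map of the 28 collagen genes that reached a median signal of 30 in a tissue group (rows, by class) in the 25 tissue samples (columns, by group and replicate number). Colour gives log2(signal + 16) minus the control mean and stops at 4, so *Col12a1* exceeds the scale in several tumors; tumors 1, 2, 3 and 8 were lower than the other tumors for *Col12a1* and higher for *Col4a5* and *Col4a6*.

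*Col1a1* encodes the main chain of type I collagen. Its signals were 1922, 1249, 655 and 1139 in control tissue 1 to 4, 2338, 1908, 2872, 3046 and 3395 in small hyperplasias 1 to 5, 2481, 2336, 2505, 2730 and 2076 in large hyperplasias 1 to 5, and 845 (lowest), 2917 (median) and 4704 (highest) in tumors. All large hyperplasias and 8 of 11 tumors lay above every control, small hyperplasia 2 fell just below control tissue 1, and tumor 2 was the lowest tumor. *Col1a1* averaged 2752 ± 1189 in tumors and 1242 ± 522 in control tissue (SD, n = 11 and 4), a log2 difference of 1.09 ± 0.31 (standard error of limma, adjusted p = 0.00347). Its partner chain *Col1a2* averaged 4368 ± 1181 in tumors and 3111 ± 572 in control tissue (log2 difference 0.45 ± 0.19, adjusted p = 0.0392). This call was lost without any one of tumors 4, 5, 7, 9, 10 or 11 or of control tissue 2, 3 or 4, with differences of 0.36 to 0.49. A second probe set of *Col1a2* gave 3273 in tumors and 777 in control tissue on average, a log2 difference of 2.00 ± 0.27 (adjusted p = 3.47e-07).

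*Col3a1*, whose type III collagen shares fibrils with type I, differed between its probe sets. On the brighter one, tumors averaged 4972 ± 1118 and control tissue 6087 ± 711 (log2 difference -0.32 ± 0.17, adjusted p = 0.0959), with tumors between 3043 and 6827 and control samples between 5242 and 6976. On the other, signals were 322, 925 and 2195 in tumors (lowest, median, highest) and 374, 263, 210 and 349 in control tissue (log2 difference 1.61 ± 0.36, adjusted p = 0.000286). The bright probe set overlapped widely and the dim one only at tumor 2, which lay within the control range. No direction is therefore given for *Col3a1* as a gene. Without tumor 5 the bright probe set was called lower (-0.37, adjusted p = 0.0494).

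Type V collagen starts and limits the width of type I fibrils. Its chain gene *Col5a2* read 1330, 1041, 918 and 1062 in control tissue, 2514, 1377, 2276, 2513 and 2272 in small hyperplasias, 1359, 1300, 1584, 2257 and 2101 in large hyperplasias, and 1166, 2647 and 4077 in tumors (lowest, median, highest). Only tumor 2 and large hyperplasia 2 lay within the control range, and the highest tumors were 5 and 10. The tumor mean of 2641 ± 999 stood against 1088 ± 174 in control tissue (log2 difference 1.18 ± 0.26, adjusted p = 0.000268). *Col5a1* averaged 1016 ± 537 in tumors and 497 ± 70.4 in control tissue (log2 difference 0.82 ± 0.32, adjusted p = 0.0254). Without control tissue 4 the *Col5a1* difference was 0.72 with an adjusted p of 0.083. *Col5a3* averaged 365 ± 188 in tumors and 439 ± 124 in control tissue and was not called (adjusted p = 0.3).

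Minor fibrillar collagens, known best from cartilage, were dimmer. *Col11a1*, a chain of type XI collagen, read 11.8, 27.4, 24.9 and 19.9 in control tissue, 55.7, 54.2, 59.4, 57.0 and 56.1 in small hyperplasias, 88.3, 98.2, 107, 84.5 and 70.1 in large hyperplasias, and 33.3, 67.0 and 177 in tumors (lowest, median, highest). Every control lay under the cut-off of 30 and every other tissue sample above it, and the large hyperplasias lay above all small ones. Because control tissue gave only a bound, *Col11a1* was at least 2.61-fold higher in tumors (adjusted p = 2.34e-05), where the floor is a signal of 30. *Col27a1*, the chain of type XXVII collagen, averaged 157 ± 54.1 in tumors and 92.6 ± 18.8 in control tissue (log2 difference 0.63 ± 0.21, adjusted p = 0.00971). *Col24a1*, a further fibrillar gene, did not reach a median of 30 in any tissue group. It reached 30 in tumors 4, 5, 6, 10 and 11, with 108 in tumor 10 as its highest value, and in none of the other 6 tumors or of the 14 remaining tissue samples. *Col2a1* and *Col11a2* stayed below 30 in all 25 tissue samples.

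**Figure D2:**
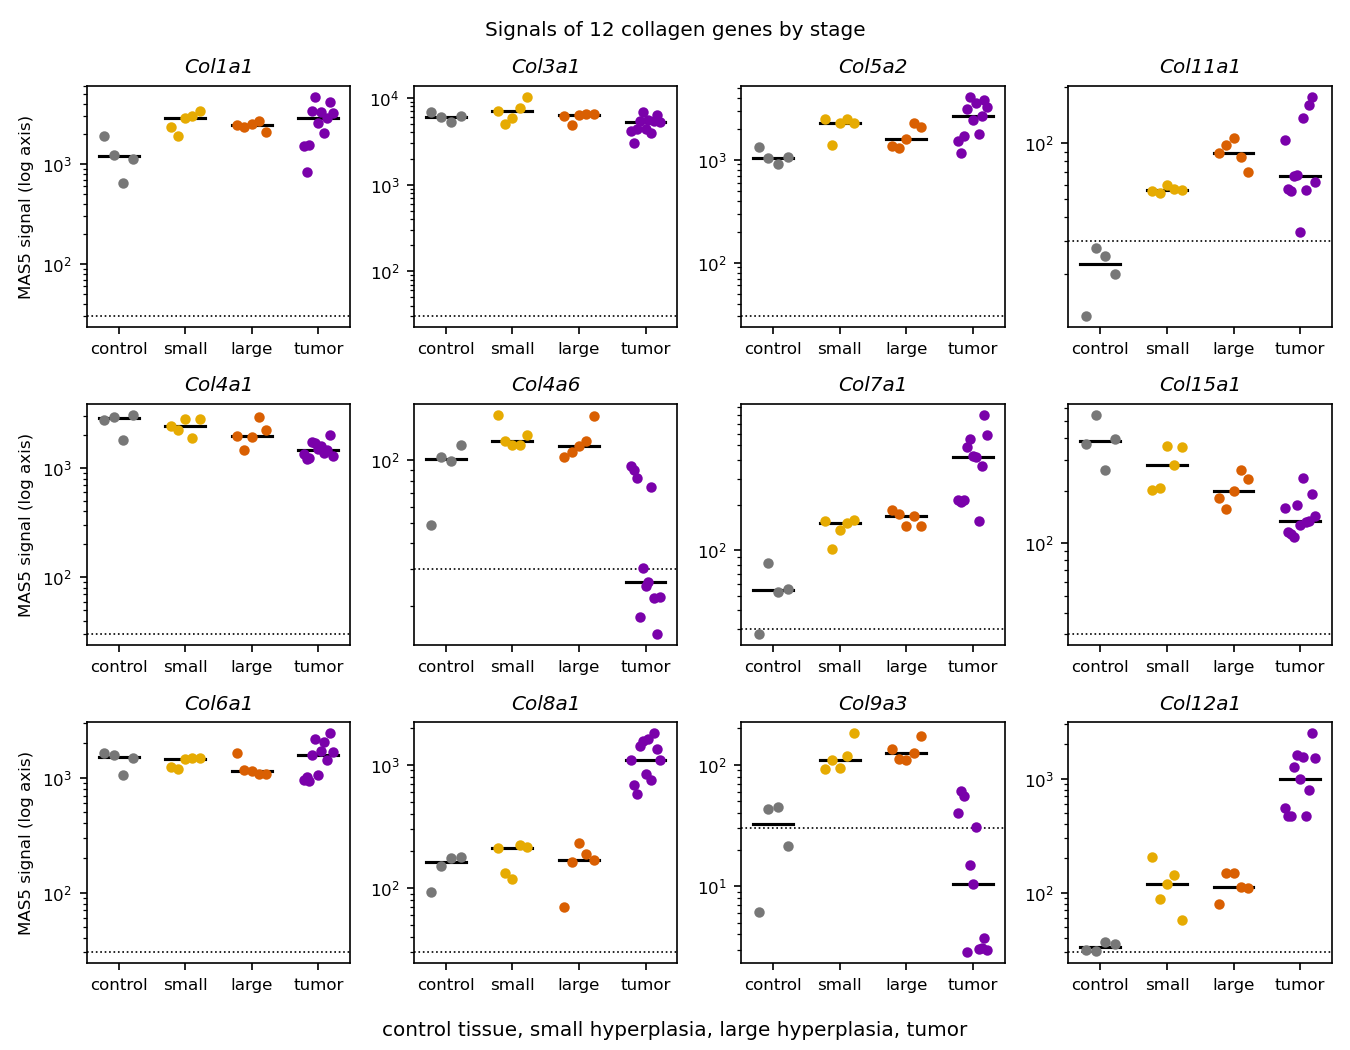
MAS5 signals (log axis, arbitrary units) of 12 collagen genes in control tissue, small hyperplasias, large hyperplasias and tumors, 1 point per sample, with the group median as a line and the cut-off of 30 dotted. *Col12a1* and *Col8a1* lay above all other samples in every tumor, whereas *Col15a1* lay below all controls in every tumor.

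Among basement membrane genes, *Col4a1* and *Col4a2* encode the chains of the type IV network found in all basement membranes. *Col4a1* read 2750, 2925, 1784 and 3048 in control tissue, 2424, 2201, 2776, 1896 and 2780 in small hyperplasias, 1958, 1467, 1934, 2898 and 2203 in large hyperplasias, and 1196, 1462 and 1980 in tumors (lowest, median, highest). All tumors lay below control tissue 1, 2 and 4, and only tumor 10 lay above control tissue 3. *Col4a1* averaged 1487 ± 238 in tumors and 2627 ± 575 in control tissue, a log2 difference of -0.80 ± 0.15 (limma, adjusted p = 5.33e-05), and the second probe set gave -1.40 ± 0.13. *Col4a2*, its head-to-head neighbour, averaged 788 ± 155 in tumors and 1317 ± 245 in control tissue (log2 difference -0.73 ± 0.13, adjusted p = 3.63e-05). Its tumor signals lay between 631 and 1110 and its control signals between 966 and 1522, so that the groups overlapped again only through tumor 10 and control tissue 3.

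*Col4a5* and *Col4a6* encode the chains of another type IV network, found under some epithelia. *Col4a6* read 93.8, 89.8, 82.8 and 74.8 in tumors 1, 2, 3 and 8 and between 14.6 and 30.5 in the remaining 7 tumors, against 49.0, 104, 99.6 and 119 in control tissue. The 7 low tumors lay below every control and the 4 high ones within the control range. Its tumor mean was 45.4 ± 32.2 and its control mean 92.8 ± 30.3 (log2 difference -0.95 ± 0.30, adjusted p = 0.0066). Its tumor median lay under the background cut-off, so it was tested in this comparison only through control tissue. *Col4a5* was highest in the same 4 tumors, with 356, 430, 422 and 358 in tumors 1, 2, 3 and 8 and 112 to 210 in the other 7, and averaged 242 ± 124 in tumors and 174 ± 47.7 in control tissue (adjusted p = 0.29). These 4 tumors were picked out after their values were seen, and no test was made of them. *Col4a3* and *Col4a4* stayed below a median of 30 in every tissue group.

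*Col7a1* encodes the anchoring fibrils that fasten the basement membrane of stratified epithelia to the stroma. It read 27.5, 82.5, 52.9 and 55.3 in control tissue, 158, 102, 138, 153 and 160 in small hyperplasias, 185, 173, 145, 169 and 145 in large hyperplasias, and 157, 420 and 799 in tumors (lowest, median, highest). All hyperplasias and tumors lay above all controls, and the 4 lowest tumors were again 1, 2, 3 and 8. The mean was 404 ± 198 in tumors and 54.6 ± 22.5 in control tissue (log2 difference 2.48 ± 0.29, adjusted p = 4.73e-08). *Col18a1*, whose cleavage product is endostatin, averaged 510 ± 147 in tumors and 218 ± 70.0 in control tissue (log2 difference 1.16 ± 0.20, adjusted p = 1.63e-05). Its groups overlapped through control tissue 1, at 322, which lay above tumor 3 at 291.

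*Col15a1*, the close relative of *Col18a1* found between basement membranes and fibrils, went the other way. It read 369, 545, 262 and 399 in control tissue, 202, 206, 361, 281 and 356 in small hyperplasias, 181, 158, 199, 262 and 234 in large hyperplasias, and 108, 135 and 235 in tumors (lowest, median, highest). All tumors lay below all controls. Its mean of 148 ± 38.2 in tumors stood against 394 ± 117 in control tissue (log2 difference -1.31 ± 0.18, adjusted p = 8.59e-07).

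*Col12a1*, which coats fibrils and links them to their surroundings, showed the largest rise of all 27 collagen genes tested. It read 31.3, 30.7, 37.0 and 35.5 in control tissue, 206, 87.7, 119, 144 and 57.4 in small hyperplasias, 79.8, 148, 148, 111 and 109 in large hyperplasias, and 465, 986 and 2504 in tumors (lowest, median, highest). The ranges of control tissue, hyperplasias and tumors did not overlap, while those of the small and large hyperplasias did. The mean was 1109 ± 652 in tumors and 33.6 ± 3.12 in control tissue (log2 difference 4.28 ± 0.35, adjusted p = 8.39e-11). *Col14a1*, the relative of *Col12a1* on mature fibrils, averaged 423 ± 167 in tumors and 456 ± 49.1 in control tissue (adjusted p = 0.459) on its bright probe set. On a second probe set *Col14a1* was called lower in tumors against control tissue (110.5 ± 39.2 in tumors and 200.5 ± 39.9 in control tissue, -0.83 ± 0.21, adjusted p = 0.00103) and against large hyperplasias (-0.89 ± 0.19, adjusted p = 0.000414), so no direction is given for the gene.

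*Col8a1* and *Col8a2* encode the short chains of type VIII collagen, which forms lattices in vessel walls and the cornea. *Col8a1* read 93.5, 150, 175 and 179 in control tissue, 211, 133, 119, 225 and 216 in small hyperplasias, 70.1, 163, 233, 190 and 169 in large hyperplasias, and 581, 1104 and 1814 in tumors (lowest, median, highest). Every tumor lay above all 14 other samples, which overlapped with each other. The tumor mean was 1166 ± 418 and the control mean 149 ± 39.3, a log2 difference of 2.78 ± 0.27 (adjusted p = 2.21e-09). *Col8a2* lay between 38.4 and 112 in tumors and below 30 in all controls, at least 2.1-fold higher in tumors (adjusted p = 1.04e-06).

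The type VI chains *Col6a1*, *Col6a2* and *Col6a3*, which build microfilaments around cells, were bright and not called. *Col6a1* averaged 1559 ± 531 in tumors and 1443 ± 258 in control tissue (log2 difference 0.05 ± 0.21), *Col6a2* 1611 ± 559 in tumors and 1313 ± 426 in control tissue (0.26 ± 0.22), and *Col6a3* 2022 ± 930 in tumors and 1424 ± 283 in control tissue (0.35 ± 0.31). Tumors spread on both sides of the controls in all 3. Adjusted p-values were 0.83, 0.283 and 0.317, which does not show that the groups are alike. *Col23a1*, a membrane-spanning collagen, ran from 37.4 to 248 over the tumors and from 17.4 to 28.6 over the controls, at least 3.11-fold higher in tumors (adjusted p = 1.42e-05).

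The rest of the class is given so that each detected member has a value; these genes were named after their values were seen. *Col9a1*, a chain of the cartilage collagen type IX, read 339, 235 and 670 in tumors 1, 2 and 3 and at most 56.8 in the other 8, against 11.0 to 21.7 in control tissue (at least 2.14-fold higher in tumors, adjusted p = 0.0196). With signals below 30 set to 30 this *Col9a1* call was lost (adjusted p = 0.079). *Col9a3*, of the same collagen, read 40.4, 61.3 and 55.8 in tumors 1, 2 and 3 and 2.84 to 30.5 in the others, against 6.08 to 45.3 in control tissue, and was not called (adjusted p = 0.312). *Col6a4* ran from 15.6 to 88.1 over the tumors and from 2.57 to 18.3 over the controls (at least 1.13-fold higher in tumors, adjusted p = 0.000935), a call that was lost with signals below 30 set to 30 (0.128). *Col16a1*, another fibril-associated collagen, averaged 255 ± 51.7 in tumors and 211 ± 75.2 in control tissue (adjusted p = 0.115), and was called higher only when control tissue 4 was left out (0.46, adjusted p = 0.0369). *Col13a1*, a second membrane-spanning collagen, reached 149 in tumor 8 and 12.7 to 44.9 in the other tumors, against 13.6 to 48.0 in control tissue. The remaining 8 genes of the class, *Col9a2* and *Col10a1* among them, had no group median of 30.

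**Figure D3:**
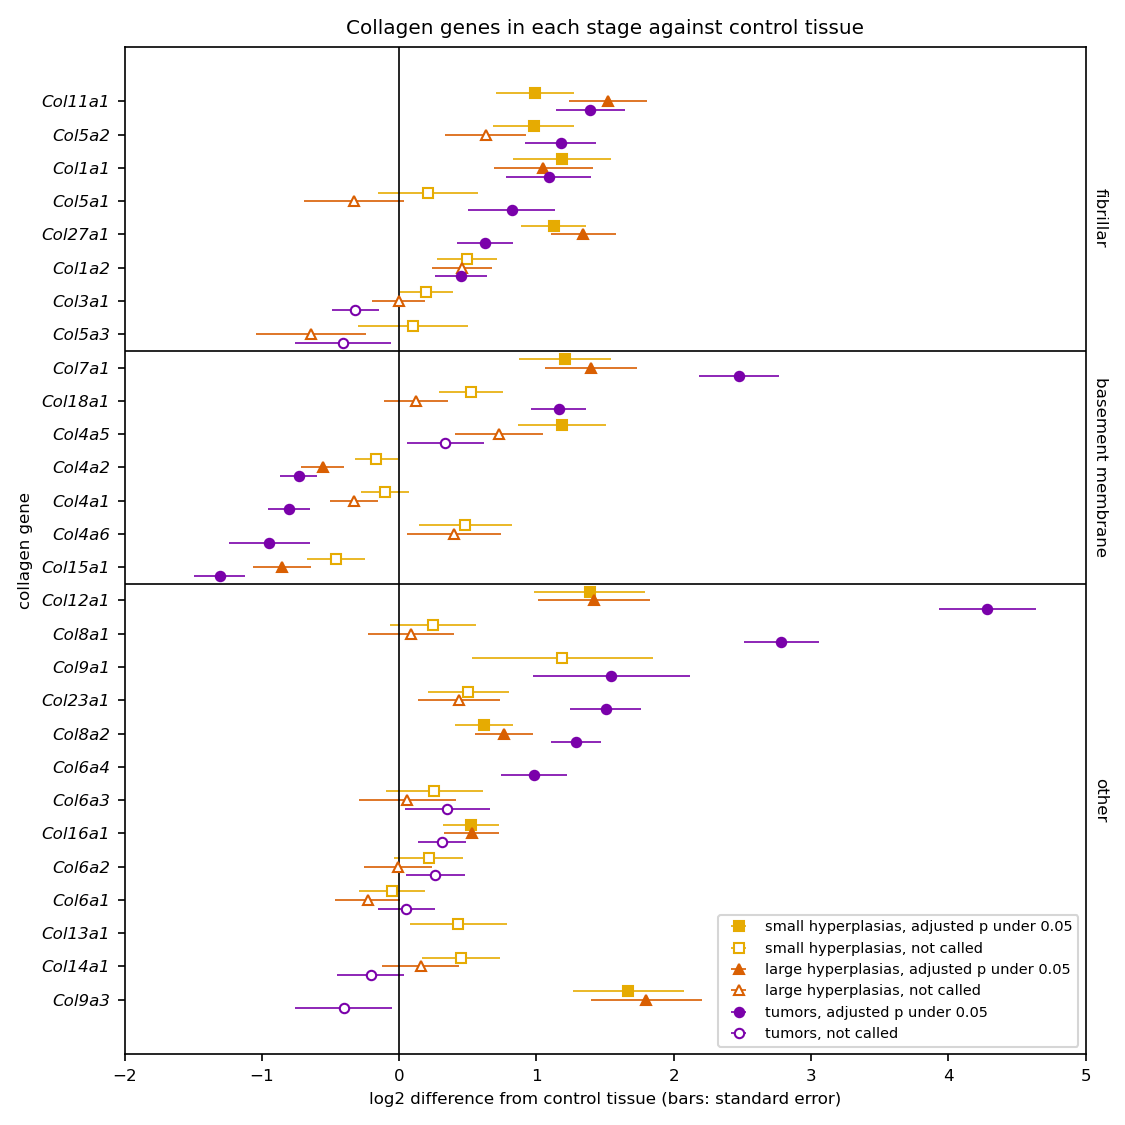
log2 differences from control tissue (x axis, bars are standard errors of limma) of each collagen gene tested in small hyperplasias (squares), large hyperplasias (triangles) and tumors (circles), on the scale of log2(signal + 16). Filled symbols have an adjusted p under 0.05; *Col12a1*, *Col8a1* and *Col7a1* lay furthest right in tumors, and *Col9a3* and *Col27a1* lay further right in hyperplasias than in tumors.

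In large hyperplasias, set against the same control samples, 8 of 25 collagen genes were called higher, against 25.6% of all 24001 probe sets tested, and 2 lower, against 20.1%, with a median log2 difference of 0.40 against 0.06 over all probe sets. After scaling arrays to the same median, 4384 probe sets were higher and 5841 lower, against 6155 higher and 4822 lower as deposited. The leading gene was *Col9a3*, at 135, 111, 109, 126 and 172 in large hyperplasias and 6.08, 43.5, 45.3 and 21.4 in control tissue (log2 difference 1.80 ± 0.40, adjusted p = 0.000756). All large hyperplasias lay above all controls. *Col11a1* was at least 2.95-fold higher (adjusted p = 0.000112), *Col12a1* averaged 119 ± 29.0 in large hyperplasias and 33.6 ± 3.12 in control tissue (log2 difference 1.42 ± 0.41, adjusted p = 0.0059), and *Col7a1* averaged 163 ± 17.7 in large hyperplasias and 54.6 ± 22.5 in control tissue (1.40 ± 0.34, adjusted p = 0.00137).

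*Col27a1* averaged 262 ± 67.5 in large hyperplasias and 92.6 ± 18.8 in control tissue, a log2 difference of 1.34 ± 0.24 (limma, adjusted p = 5.96e-05), and *Col1a1* was 1.05 ± 0.36 higher (adjusted p = 0.019). The *Col1a1* call was lost without control tissue 3 (0.78, adjusted p = 0.095) and was not made on its second probe set (0.11 ± 0.27, adjusted p = 0.755), nor was that of *Col12a1* (0.70 ± 0.36, adjusted p = 0.114). The 2 lower genes were basement membrane collagens: *Col15a1* averaged 207 ± 41.6 in large hyperplasias and 394 ± 117 in control tissue (log2 difference -0.85 ± 0.21, adjusted p = 0.00189), and *Col4a2* averaged 884 ± 131 in large hyperplasias and 1317 ± 245 in control tissue (-0.56 ± 0.15, adjusted p = 0.00475). *Col4a1* differed by -0.33 ± 0.17 on its bright probe set, short of a call (adjusted p = 0.125), and by -0.72 ± 0.15 on the other (adjusted p = 0.000411). The bright one was called lower without large hyperplasia 4 (-0.46) or control tissue 3 (-0.51). The calls of *Col8a2* (at least 1.3-fold) and *Col16a1* (0.53 ± 0.20) were also upward, and that of *Col16a1* was lost without large hyperplasia 4 or 5 or control tissue 1. The values of *Col6a2*, *Col6a3*, *Col8a1* and *Col18a1* differed by -0.01 to 0.12 on the log2 scale and none was called. *Col5a1* (-0.33), *Col5a2* (0.63) and *Col6a1* (-0.23) differed more and were not called either. *Col3a1* differed by -0.00 on its bright probe set and was called higher on the other (649 ± 223 in large hyperplasias and 299 ± 75.9 in control tissue, 1.05 ± 0.41, adjusted p = 0.0368). *Col1a2* was likewise not called on its bright probe set (0.46 ± 0.22, adjusted p = 0.0892) and called higher on the second (1.24 ± 0.31, adjusted p = 0.00182). In 9 of the 25 genes the groups did not overlap, as in 37.4% of all probe sets tested. Summed adipocyte marker signals were 17091 to 22617 in large hyperplasias and 48595 to 52386 in control tissue, and endothelial markers 1239 to 1629 in large hyperplasias and 3141 to 3389 in control tissue. Leukocyte markers were called higher for 8 of 8 genes (median log2 difference 1.42, summed signals 5005 to 7065 in large hyperplasias and 2574 to 4268 in control tissue) and cartilage and bone markers for 2 of 3, *Sox9* and *Acan* (264 to 388 in large hyperplasias and 99.4 to 154 in control tissue). The part of these markers was not tested.

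In small hyperplasias 10 of 27 collagen genes were called higher, against 16.8% of all 23489 probe sets tested, and 0 lower, against 14.4%, with a median of 0.50 against -0.00 over all probe sets. By unadjusted p under 0.05, 12 were higher and 1 was lower, *Col15a1* (log2 difference -0.46 ± 0.21, adjusted p = 0.102), which was called lower without control tissue 3 (-0.63, adjusted p = 0.0333). The groups did not overlap in 10 of the 27, against 22.1% of all probe sets tested. Beside *Col9a3* (log2 difference 1.67 ± 0.40, adjusted p = 0.0028), *Col12a1* (1.39 ± 0.41, adjusted p = 0.0112), *Col7a1* (1.21 ± 0.34, adjusted p = 0.00793), *Col27a1* (1.12 ± 0.24, adjusted p = 0.000858) and *Col11a1* (at least 1.88-fold, adjusted p = 0.01), the calls included *Col4a5*. *Col4a5* read 446, 396, 415, 367 and 395 in small hyperplasias and 105, 182, 194 and 214 in control tissue, with no overlap and a log2 difference of 1.19 ± 0.32 (adjusted p = 0.00677), although its second probe set gave 0.45 ± 0.23 (adjusted p = 0.144). *Col1a1* averaged 2712 ± 590 in small hyperplasias and 1242 ± 522 in control tissue (1.19 ± 0.36, adjusted p = 0.0136), a call lost without control tissue 3 (0.92, adjusted p = 0.068) and not made on its second probe set (0.27 ± 0.27, adjusted p = 0.466). The second probe set of *Col12a1* was not called either (0.83 ± 0.36, adjusted p = 0.0805). *Col5a2* averaged 2190 ± 470 in small hyperplasias and 1088 ± 174 in control tissue (0.98 ± 0.30, adjusted p = 0.0133). The calls of *Col8a2* (at least 1.13-fold) and *Col16a1* (0.52 ± 0.20) each depended on single samples: *Col8a2* lost its call without small hyperplasia 5 or control tissue 3 or 4, and *Col16a1* without any one of small hyperplasias 1, 3, 4 and 5 or of control tissue 1 and 3. *Col18a1* (0.52 ± 0.23) and *Col1a2* (0.50 ± 0.22) were not called with all samples but were without small hyperplasia 2, and *Col18a1* also without control tissue 1. Second probe sets were called higher for *Col1a2* (2134 ± 237 in small hyperplasias and 777 ± 303 in control tissue, 1.5 ± 0.31, adjusted p = 0.000623) and for *Col3a1* (1112 ± 298 in small hyperplasias and 299 ± 75.9 in control tissue, 1.83 ± 0.41, adjusted p = 0.0014), whose bright one gave 0.20 (adjusted p = 0.462). *Col4a1* and *Col4a2* differed by -0.10 ± 0.17 and -0.17 ± 0.15 and were not called. Neither *Col5a1* (0.21) nor *Col6a1*, *Col6a2* and *Col6a3* were called. These type VI genes differed by -0.19 to 0.41 with each sample left out in turn. Adipocyte marker sums were 23715 to 29731 in small hyperplasias and 48595 to 52386 in control tissue. Leukocyte markers were higher for 3 of 7 genes (3884 to 5465 in small hyperplasias and 2574 to 4268 in control tissue). The summed signals of the 3 cartilage and bone markers were 146 to 233 in small hyperplasias and 99.4 to 154 in control tissue. Only 1 of them could be tested in this comparison, and it was not called. The part of these markers was not tested.

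Tumors set against large hyperplasias separated the collagens further. Of 27 tested, 7 were called higher, against 21% of all 23747 probe sets, and 5 lower, against 32.9%, with a median log2 difference of 0.23 against -0.09 over all probe sets. After scaling to the same median, 8164 probe sets were higher and 4351 lower, against 4979 higher and 7821 lower as deposited, and 10 collagen genes were then called higher and 3 lower. The largest differences were those of *Col12a1* (1109 ± 652 in tumors and 119 ± 29.0 in large hyperplasias, log2 difference 2.86 ± 0.33, adjusted p = 1.4e-07) and *Col8a1* (1166 ± 418 in tumors and 165 ± 59.8 in large hyperplasias, 2.70 ± 0.25, adjusted p = 7.78e-09). *Col5a1* (1.15 ± 0.29, adjusted p = 0.00214), *Col7a1* (1.08 ± 0.27, adjusted p = 0.00171), *Col23a1* (1.07 ± 0.24, adjusted p = 0.000601) and *Col18a1* (1.04 ± 0.19, adjusted p = 5.67e-05) were also higher. *Col8a2* was 0.52 ± 0.17 higher (adjusted p = 0.0122), which was lost without large hyperplasia 4. *Col5a2* was 0.54 ± 0.24 higher and not called (adjusted p = 0.0562), but was called without any one of tumors 1, 2, 3 and 8 or of large hyperplasias 4 and 5. Its second probe set was called higher (1.255). Summed adipocyte marker signals were 924 to 6473 in tumors and 17091 to 22617 in large hyperplasias, and basal marker signals 10155 to 16670 in tumors and 6296 to 10613 in large hyperplasias; their part was not tested.

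The falls against large hyperplasias included genes that the hyperplasias had gained over control tissue. *Col9a3* averaged 20.8 ± 22.5 in tumors and 131 ± 25.4 in large hyperplasias, with no overlap and a log2 difference of -2.20 ± 0.33 (adjusted p = 5.25e-06). The tumor medians of *Col9a3* and *Col4a6* lay under the background cut-off, so both genes were tested here only through the large hyperplasias. That their tumor medians were the lower ones was therefore fixed by the cut-off, and the count of lower genes rests partly on it. *Col27a1* averaged 157 ± 54.1 in tumors and 262 ± 67.5 in large hyperplasias (-0.72 ± 0.19, adjusted p = 0.00294), but its second probe set gave -0.15 and was not called. Cartilage and bone markers were called lower for 2 of 3 genes in this comparison (summed signals 86.1 to 239.7 in tumors and 264 to 388 in large hyperplasias) and leukocyte markers for 4 of 8 (2792 to 6183 in tumors and 5005 to 7065 in large hyperplasias), and their part was not tested. *Col4a6* was lower in every tumor (-1.34 ± 0.27, adjusted p = 0.000233), and *Col4a1* differed by -0.47 ± 0.14 (adjusted p = 0.00692). *Col4a1* was no longer called after scaling to the same median (-0.23, adjusted p = 0.22). *Col15a1* differed by -0.45 ± 0.17 (adjusted p = 0.0279) and lost its call without large hyperplasia 4 or 5. The type I genes did not separate these stages on their bright probe sets: *Col1a1* averaged 2752 ± 1189 in tumors and 2426 ± 241 in large hyperplasias (0.04 ± 0.29), and *Col1a2* 4368 ± 1181 in tumors and 4244 ± 384 in large hyperplasias (-0.01 ± 0.18). On the second probe sets *Col1a2* was 0.76 ± 0.25 higher in tumors (adjusted p = 0.0115) and *Col1a1* 0.69 ± 0.22 higher (adjusted p = 0.00915). In 4 of the 27 genes, *Col4a6*, *Col8a1*, *Col9a3* and *Col12a1*, tumors and large hyperplasias did not overlap, against 23.2% of all probe sets tested.

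Between large and small hyperplasias 0 of 27 collagen genes were called higher and 0 lower with limma, against 5.01% and 4.62% of all 23456 probe sets. Differences ran from -0.74 ± 0.38 for *Col5a3* to 0.53 ± 0.27 for *Col11a1*, and only *Col4a2* had an unadjusted p under 0.05 (884 ± 131 in large hyperplasias and 1159 ± 105 in small ones, log2 difference -0.39 ± 0.15, adjusted p = 0.0884). The mean of *Col4a2* was lower in each stage than in the one before, but no single step was called. This held from control tissue to small hyperplasias, from small to large ones, and from large hyperplasias to tumors. In 2 of the 27 genes the groups did not overlap, against 9.4% of all probe sets tested.

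Tumors differed among themselves in the level of the fibrillar genes as a class. Averaged over the 8 detected fibrillar genes, the log2 difference from the control mean lay between -0.33 (tumor 2) and 1.27 (tumor 10), with a median of 0.74, whereas the 7 basement membrane genes averaged between -0.10 and 0.17 and the 13 other collagens between 0.70 and 1.32. Such an average hides members that go opposite ways, such as *Col4a6* (below every control) and *Col7a1* (above every control) in the tumors other than 1, 2, 3 and 8. Most chains that assemble into the same collagen followed each other closely across the 11 tumors. *Col1a1* and *Col1a2* correlated at r = 0.986 and Spearman's rho = 0.991 (permutation test, adjusted p = 6.5e-05 for both over 13 pairs, the smallest raw p that the permutations can give being 1e-05), *Col5a1* and *Col5a2* at r = 0.986 and rho = 0.964 (permutation adjusted p = 8.67e-05 and 6.5e-05), and *Col6a1* and *Col6a2* at r = 0.98 and rho = 0.955 (permutation adjusted p = 6.5e-05 and 0.000173). *Col4a1* and *Col4a2* gave r = 0.908 and rho = 0.891 (permutation adjusted p = 0.000624 and 0.00138). *Col6a1* and *Col6a3* gave r = 0.547 and rho = 0.655 (permutation adjusted p = 0.104 and 0.0489). Without the 2 tumors farthest from the median of the first gene, r was 0.971, 0.976, 0.98, 0.815 and 0.454 for these pairs in the order given.

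Different collagens also moved together. Across the same tumors *Col1a1* correlated with *Col3a1* at r = 0.953, rho = 0.927 (permutation adjusted p = 0.00013 and 0.000358), with *Col12a1* at r = 0.871, rho = 0.873 (adjusted p = 0.000672 and 0.00202), with *Col7a1* at r = 0.832, rho = 0.827 (adjusted p = 0.00232 and 0.00447) and with *Col4a1* at r = 0.809, rho = 0.855 (adjusted p = 0.00379 and 0.0031). Without the 2 farthest tumors r was 0.91, 0.91, 0.866 and 0.783. Pairs of a collagen with a cell marker gene were looser than these: *Col7a1* with the basal keratin *Krt5* gave r = 0.71, rho = 0.636 (permutation adjusted p = 0.0196 and 0.0528) and r = 0.568 without the farthest tumors. *Col1a1* with the fibroblast receptor *Pdgfra* gave r = 0.466, rho = 0.455 (permutation adjusted p = 0.16 and 0.178), *Col4a1* with the endothelial *Pecam1* r = 0.539, rho = 0.509 (adjusted p = 0.104 and 0.133), and *Col15a1* with the adipocyte *Adipoq* r = -0.41, rho = -0.35 (adjusted p = 0.206 and 0.3). Without the farthest tumors these were r = 0.144, 0.196 and -0.14. Each point of such a pair is 1 array, so both genes share its scaling.

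**Figure D4:**
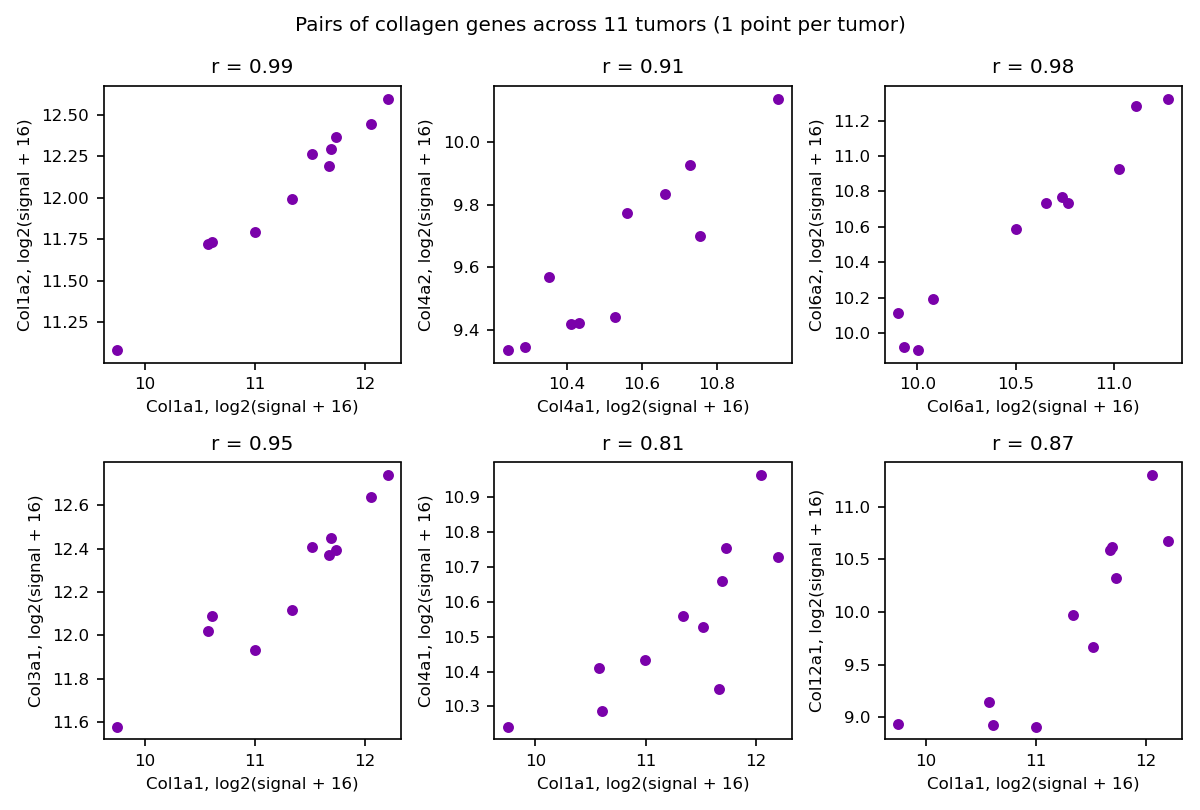
Pairs of collagen genes across the 11 tumors, both axes log2(signal + 16), 1 point per tumor, with Pearson's r above each panel. Chains of the same collagen (*Col1a1* with *Col1a2*, *Col4a1* with *Col4a2*, *Col6a1* with *Col6a2*) lay close to a line, with r between 0.91 and 0.99.

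Genes whose products modify, process or bind collagen were mixed. Of 17 genes for prolyl and lysyl modification and folding tested in tumors against control tissue, 8 were higher, against 33.2% of all probe sets tested, and 3 lower, against 35.9% (median log2 difference 0.35). *P4ha1*, a prolyl hydroxylase subunit, was higher (215 ± 67.5 in tumors and 95.4 ± 14.2 in control tissue, 1.01 ± 0.18, adjusted p = 1.73e-05), as was *P4ha3* (at least 1.07-fold, adjusted p = 0.000161), which lost its call with signals below 30 set to 30. The lysyl hydroxylase *Plod3* (-0.86 ± 0.15, adjusted p = 1.25e-05) and the glycosyltransferase *Colgalt2* (-0.99 ± 0.19, adjusted p = 4.46e-05) were lower. Of 7 genes for propeptide cleavage and cross-linking, 3 were higher and 3 lower, near the same shares of all probe sets. The procollagen protease *Bmp1* averaged 311 ± 85.6 in tumors and 113 ± 24.1 in control tissue (1.31 ± 0.20, adjusted p = 2.69e-06), and the lysyl oxidase relative *Loxl3* was 1.31 ± 0.22 higher (adjusted p = 8.86e-06). Its relative *Loxl1* was lower (-0.87 ± 0.20, adjusted p = 0.000462), and *Pcolce2*, an enhancer of procollagen cleavage, averaged 42.1 ± 21.5 in tumors and 478 ± 38.8 in control tissue (-3.19 ± 0.24, adjusted p = 1.15e-11).

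Genes of fibril-binding proteins held the largest falls of these lists. Of 12 tested 5 were higher and 6 lower in tumors, against 33.2% and 35.9% of all probe sets. The falls were led by the small proteoglycans *Prelp* (260 ± 264 in tumors and 3927 ± 544 in control tissue, log2 difference -4.27 ± 0.45, adjusted p = 6.98e-09) and *Ogn* (-3.32 ± 0.39, adjusted p = 4.79e-08), by *Dpt* (339 ± 204 in tumors and 4530 ± 334 in control tissue, -3.97 ± 0.39, adjusted p = 2.38e-09) and by *Tnxb* (-3.00 ± 0.32, adjusted p = 7.63e-09). *Prelp* was also lower in large hyperplasias (-2.64 ± 0.52, adjusted p = 0.000182) and in small ones (-1.84 ± 0.52, adjusted p = 0.00845), each against control tissue. Of 7 collagen receptors 3 were higher and 1 lower in tumors, against the same shares of all probe sets. The epithelial receptor *Ddr1* averaged 1470 ± 183 in tumors and 370 ± 113 in control tissue (2.00 ± 0.16, adjusted p = 5.76e-11), and its mesenchymal relative *Ddr2* averaged 189 ± 52.1 in tumors and 536 ± 18.5 in control tissue (-1.47 ± 0.15, adjusted p = 3.4e-09).

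Of 14 partners of type IV collagen in the basement membrane, 5 were higher and 6 lower in tumors, near the 33.2% and 35.9% of all probe sets. The laminin chains *Lama3* (545 ± 167 in tumors and 151 ± 52.3 in control tissue, 1.75 ± 0.19, adjusted p = 1.48e-08) and *Lamb3* (1.10 ± 0.18, adjusted p = 8.23e-06), both of epithelial laminin-332, and the proteoglycan *Agrn* (1.44 ± 0.10, adjusted p = 4.57e-12) were higher. *Lama2*, the laminin chain of muscle, nerve and mesenchymal basement membranes, was lower (79.7 ± 27.4 in tumors and 328 ± 60.5 in control tissue, -1.88 ± 0.19, adjusted p = 3.09e-09). In large hyperplasias against control tissue *Agrn* (1.41 ± 0.12, adjusted p = 8.66e-10) and *Lama3* (1.10 ± 0.22, adjusted p = 0.000252) were already higher, and *Nid1*, which links laminin to type IV collagen, averaged 1169 ± 131 in large hyperplasias and 2154 ± 153 in control tissue (-0.88 ± 0.23, adjusted p = 0.00277). In large hyperplasias against control tissue 2 of 16 modification genes were higher and 3 lower, 0 of 7 cleavage genes higher and 1 lower, 4 of 12 fibril-binding genes higher and 4 lower, 2 of 6 receptors higher and 3 lower, and 4 of 14 basement membrane partners higher and 6 lower, against 25.6% higher and 20.1% lower over all probe sets. In small hyperplasias 1 of 16 modification genes was higher and 1 lower, 0 of 7 cleavage genes higher and 0 lower, 3 of 13 fibril-binding genes higher and 2 lower, 1 of 6 receptors higher and 0 lower, and 4 of 15 basement membrane partners higher and 0 lower, against 16.8% and 14.4%.

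In basal cells sorted by CD24 and CD49f after removal of CD45+ and CD31+ cells, amplified with another kit and so never compared with tissue, the question was whether loss of *Myc* alters collagen expression. *Myc* read 141, 428 and 42.3 in *Myc*-deficient pools 1 to 3 and 1479, 1677 and 1869 in control pools. The sources used here do not say where its probe set lies relative to the deleted part. Basal markers were detected in both genotypes for 8 of 8 genes (summed signals 16868 to 22028 in *Myc*-deficient and 15004 to 17001 in control pools). Of the 41 collagen genes 25 reached a median of 30 and were tested. With limma 0 were higher and 0 lower, as 0% of all 19737 probe sets were called in either direction. By unadjusted p under 0.05, 1 collagen gene was higher and 0 were lower, against 1259 of all probe sets (6.38%). The median log2 difference of the 25 genes was 0.02.

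The basement membrane genes were bright in these cells, and most overlapped between genotypes. *Col4a1* read 4146, 3345 and 6149 in *Myc*-deficient pools and 3175, 3274 and 4224 in control pools (log2 difference 0.32 ± 0.23), *Col4a2* 1211, 813 and 2379 in *Myc*-deficient and 991, 1021 and 1865 in control pools (0.10 ± 0.37), and *Col7a1* 627, 278 and 1561 in *Myc*-deficient and 535, 697 and 987 in control pools (-0.14 ± 0.48). Pool 3 was the highest of each genotype for all 3 genes. The labels and methods name no pairs of pools, but pools of the same number deviated together on these arrays (correlations 0.284 to 0.365). The differences and standard errors given for sorted cells come from the unpaired fit. Taken as pairs by number, *Col4a1* was higher in the *Myc*-deficient pool in 3 of 3, and was not called in a paired fit either. *Col4a6* read 776, 573 and 581 in *Myc*-deficient and 944, 821 and 976 in control pools, with no overlap (-0.51 ± 0.25, adjusted p = 0.795), but its second probe set gave 0.06 ± 0.36. *Col6a4* read 214, 158 and 143 in *Myc*-deficient and 76.0, 48.1 and 82.9 in control pools, with no overlap (1.15 ± 0.38, adjusted p = 0.647), but its second probe set gave -0.14 ± 0.42. Groups did not overlap in these 2 of 25 genes, against 12.1% of all probe sets tested.

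Among the other collagens *Col16a1* (2365, 2209 and 3810 in *Myc*-deficient and 1885, 1939 and 3729 in control pools) and *Col9a3* (980, 643 and 1202 in *Myc*-deficient and 784, 882 and 1498 in control pools) were detected in every pool; *Col16a1* was likewise higher in the *Myc*-deficient pool of 3 of 3 pairs and not called. Fibrillar genes were detected too: *Col1a2* read 707, 255 and 263 in *Myc*-deficient and 544, 668 and 508 in control pools (-0.63 ± 0.38), and *Col3a1* 669, 127 and 486 in *Myc*-deficient and 420, 622 and 716 in control pools (-0.68 ± 0.49). *Myc*-deficient pool 2 was the lowest of all for *Col1a2* and *Col3a1*. Summed signals of the 8 fibroblast markers tested were 727 to 1677 in *Myc*-deficient and 1490 to 1685 in control pools, and their part in these values was not tested. Differences of all 25 genes ran from -1.11 ± 0.56 for *Col11a1* to 1.22 ± 0.57 for *Col27a1*. With 3 pools each such standard errors limit what could be called.

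**Figure D5:**
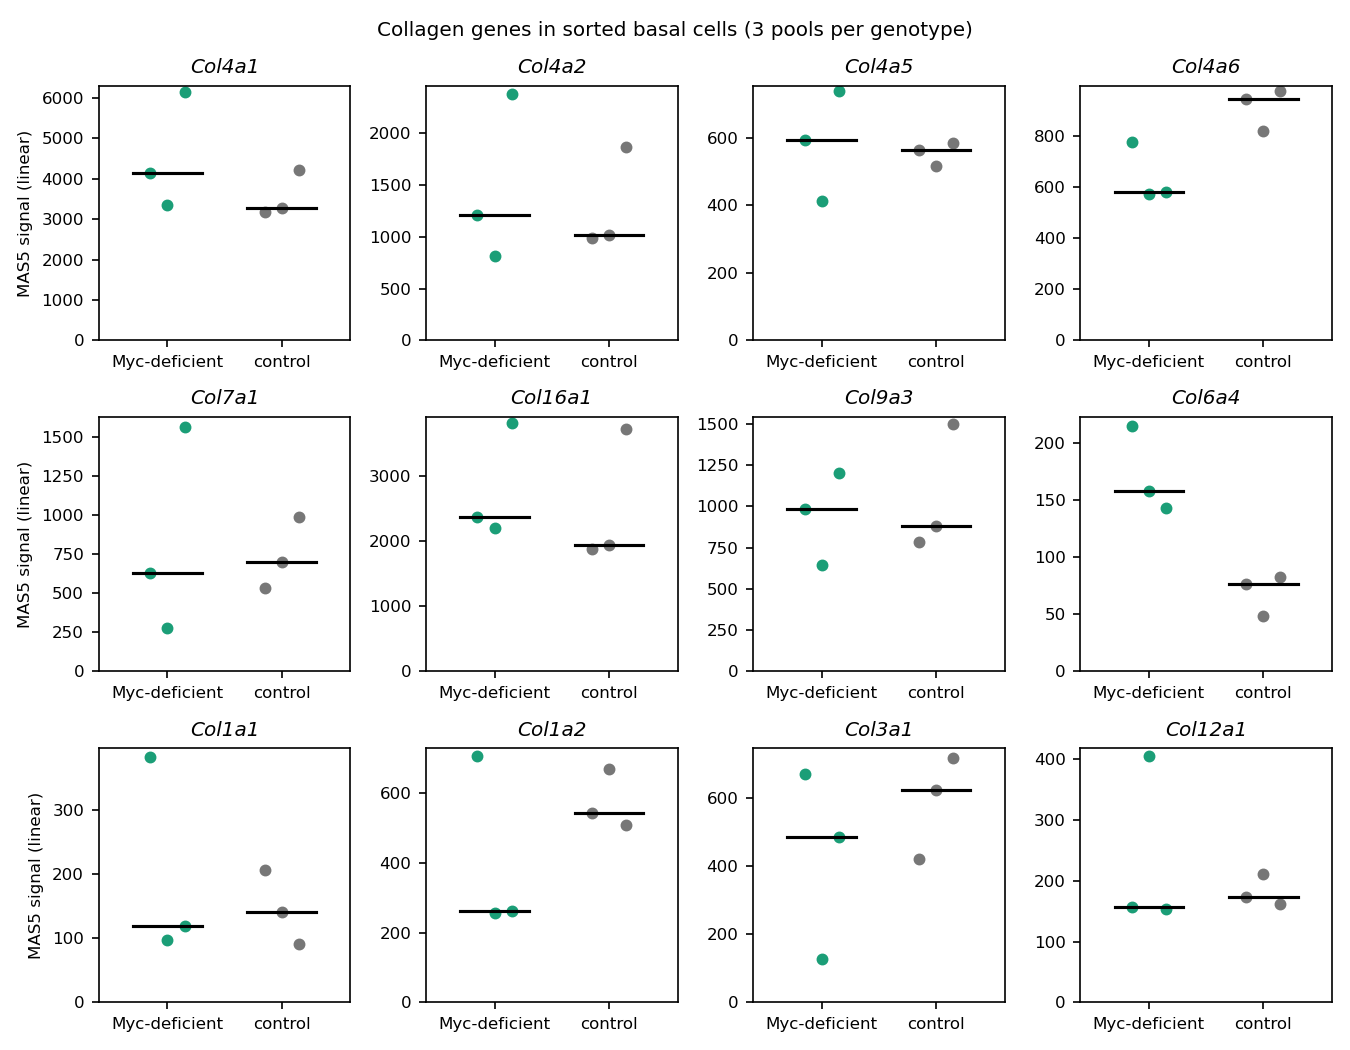
MAS5 signals (linear axis from 0, arbitrary units) of 12 collagen genes in sorted basal cells, *Myc*-deficient pools left and control pools right, 1 point per pool with the median as a line. Only *Col4a6* and *Col6a4* among the 25 genes tested, each on its brightest probe set, showed no overlap between genotypes.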

How the data were processed

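RNA of 25 tissue samples and 6 sorted cell pools had been hybridised to Affymetrix Mouse Genome 430 2.0 arrays; tissue RNA went through a one-cycle Affymetrix labelling and RNA of the sorted pools through NuGEN amplification. The deposited values are signal intensities that the authors computed with MAS5 in Affymetrix Expression Console, scaled to a trimmed mean of 100 per array (version not given in the sources used here, tools as named in the submitters' processing notes). No array pair was identical (highest Spearman correlation 0.966). After 64 control probe sets were left out, 45037 remained, of which 34945 carried 1 gene symbol, 932 several and 9160 none in the platform annotation.

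Signals were tested as log2(signal + 16) with limma 3.58.1 in R 4.3.3 (empirical Bayes with trend), 25 tissue samples in 1 model and sorted cells in another, over probe sets whose higher group median reached 30, with Benjamini-Hochberg adjustment over all of them and calls at an adjusted p under 0.05. Each gene takes the value of whichever of its probe sets was brightest on average. Where every sample of a group lay under 30, a fold is a bound against 30. The test was checked with a self-test before use. Correlations across tumors used 100000 permutations (SciPy 1.17.1).

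The named genes are, in each comparison with a control, up to 5 rises and 5 falls among called collagens with a group median of at least 100, the 14 main chains (such as *Col1a1*, *Col4a1*, *Col7a1* and *Col12a1*) whatever their values, up to 4 called members of each other list, and up to 5 collagens that moved against their class. For sorted cells only some of the main chains are named. Collagens outside this rule are given so that every detected member has a value. Members and lists were chosen with earlier results of these data known. Alternatives were other offsets, a floor at 30, filters, quantile and median scaling, fitting only the groups compared, the replicate number as a block, leaving out each sample, the methods' t-test and fold rule, and other ways of joining probe sets. Samples sharing a number between groups deviated together only in the sorted pools (correlations of deviations 0.284 to 0.365). The main fit of these pools was unpaired. All comparisons with control tissue share its 4 samples.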

Additional observations from a re-analysis of the deposited data

Results flagged for a closer look

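A few single samples lay far from the rest of their group. Each of 29 collagen genes was tested in control tissue (4 samples) and in both hyperplasia groups (5 each), where the group median reached 30. The 11 tumors were not checked in this way. The measure was the gap between an extreme sample and its neighbour, relative to the range of the group (Dixon's 95% limit). Of 74 such groups 6 passed it, where chance alone gives about 1 in 20.

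*Col18a1* read 322 in control tissue 1, and the next control read 191. *Col3a1* read 4852 in large hyperplasia 2, below the other large hyperplasias, which began at 6130. *Col5a2* read 1377 in small hyperplasia 2, and the other small hyperplasias began at 2272. *Col6a1* read 1649 in large hyperplasia 1, and the next reading was 1174. *Col9a1* read 108 in small hyperplasia 1, against a next value of 51.2. *Col9a3* read 183 in small hyperplasia 5, against a next value of 118. Each of these 6 readings came from a different library.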

How the results depend on the processing

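Of 4723 single-gene values and correlations recomputed under another setting, 4491 were unchanged, 148 lost a call, 82 gained one and 2 turned round. For a single-gene value, unchanged means the same side of the threshold and, where called, the same direction. The correlations were not tested again, and for them unchanged means only that r moved little. Both reversals came from averaging the probe sets of a gene: *Col3a1* then differed by 0.65 in tumors against control tissue (adjusted p = 0.026) and *Col1a2* by 0.52 in tumors against large hyperplasias (adjusted p = 0.039). Counted as probe sets, collagens gave 29 of 47 higher and 7 lower in tumors against control tissue (33.2% and 35.9% of all probe sets). In large hyperplasias 14 of 43 were higher and 3 lower (25.6% and 20.1%), and in small ones 16 of 45 higher and 0 lower (16.8% and 14.4%). In tumors against large hyperplasias 19 of 48 were higher and 9 lower (21% and 32.9%).

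The count of lower genes in large hyperplasias against control tissue was 1 by the methods' t-test after Benjamini-Hochberg adjustment (3880 of all 24001 probe sets). It was 0 by the methods' own rule (1710 of all probe sets). In tumors against large hyperplasias it was 3 after scaling to the same median (4351 of all 23562 probe sets) and 2 by the methods' rule (2255 of 23747). Between large and small hyperplasias, of 27 collagen genes, fitting only these groups gave 1 higher and 4 lower (1557 and 1198 of all 23456 probe sets). The replicate block gave 1 higher and 1 lower (1308 and 1083). The methods' t-test without adjustment gave 1 higher and 4 lower (3187 and 2432), and the methods' rule 1 lower (312 lower). In sorted cells, of 25 collagen genes, the unadjusted t-test gave 1 higher and 1 lower, against 405 and 475 of all 19737 probe sets. The methods' rule gave 2 higher and 2 lower, against 1441 and 1684 of all probe sets. With each sample left out in turn there were 13 to 14 higher and 4 to 5 lower genes in tumors, 7 to 8 and 2 to 3 in large hyperplasias and 7 to 12 and 0 to 1 in small hyperplasias, each against control tissue, and the 1 lower gene appeared without control tissue 3. Against large hyperplasias, tumors kept 7 to 9 higher and 4 to 6 lower genes.

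Tissue samples with the same number shared no more than the number (correlations of -0.20 to 0.14). With the number as a block, 11 genes were higher and 5 lower in tumors against control tissue (7661 and 7452 of all 24086 probe sets). In large hyperplasias 9 and 3 were (6298 and 4796 of 24001), and in small ones 9 and 0 (4001 and 3284 of 23489). In tumors against large hyperplasias 6 and 6 were (3943 and 5656 of 23747). In sorted cells, where pools of the same number deviated together, the block changed no call. Scaling to the same median shifted the median log2 difference of all probe sets by 0.11 in tumors and -0.11 in large hyperplasias against control tissue, 0.21 between them and -0.11 in sorted cells. Dim genes depend on the cut-off of 30, and the number of arrays limits precision.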
